A study of Mus musculus with 9 samples.

Results

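Sox9, Wt1, Fshr, Gata1, Clu and Trf, 6 genes by which Sertoli cells are commonly recognised, were followed across 9 RNA-seq libraries of germ cell depleted mouse testis. They were taken by gene symbol, and each symbol matched 1 of the 55401 rows of the gene table. Per the labels, every mouse had received busulfan, an alkylating drug that kills dividing germ cells and spares most somatic cells. The BP group (PBS+Busulfan; replicates 5, 6 and 7) was injected with phosphate-buffered saline. The BE group (EXO+Busulfan; replicates 6, 7 and 8) was injected with exosomes, small vesicles shed by cells, from the blood of wild-type mice. The BdE group (dEXO+Busulfan; replicates 5, 6 and 7) was injected with exosomes from mice whose intestinal microbiota had been disturbed. All 3 groups thus share the busulfan treatment, and no testis without it is among them. Strain, age, dose and interval are not given in the labels. The labels do not say that replicates came from separate animals, so a p-value here speaks of the spread among these samples only.

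Sertoli cells are the somatic cells of the seminiferous tubule that nurse the germ cells and no longer divide in the adult. The transcription factor Sox9 directs supporting cells to the Sertoli fate downstream of Sry, and Wt1, a zinc finger factor, maintains that fate. Fshr encodes the receptor through which pituitary follicle-stimulating hormone (FSH) raises cyclic AMP in these cells. Gata1 is a zinc finger factor known from red blood cell formation and, within the mouse testis, made in Sertoli cells. Clu and Trf encode secreted glycoproteins: clusterin is a chaperone-like protein of tubule fluid, and transferrin carries iron to germ cells behind the blood-testis barrier.

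In the GRCm38 coordinates of the table, Sox9 (ENSMUSG00000000567) lies at chr11:112782224-112787760 on the plus strand and Wt1 (ENSMUSG00000016458) at chr2:105126529-105173612 on the plus strand. Fshr (ENSMUSG00000032937) lies at chr17:88984952-89200675 on the minus strand and Gata1 (ENSMUSG00000031162) at chrX:7959260-7978071 on the minus strand. Clu (ENSMUSG00000022037) lies at chr14:65968483-65981547 on the plus strand and Trf (ENSMUSG00000032554) at chr9:103204001-103230444 on the minus strand. All 6 are protein-coding, and the counts pool every transcript of a gene. In GENCODE M21 only Trf overlaps another gene, the same-strand readthrough Gm20425, over 26307 bases. Gm20425 is not among the genes with counts. Whether reads of that readthrough were counted for Trf is not known, and they cannot be told apart here.

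The 250 bases before the annotated start were read for the pair of genes matched in the RefSeq promoter table (GRCm38.p6), Fshr and Gata1, and are shown because both genes are transcribed in few cell types besides Sertoli cells. The Fshr window is chr17:89200676-89200925 and the Gata1 window chrX:7967911-7968160, both read on the minus strand, 5′ to 3′. Capitals mark an E box (CACGTG) in Fshr, the kind of element through which upstream stimulatory factors act on the rat Fshr promoter, and CACCC boxes in Gata1.
Fshr: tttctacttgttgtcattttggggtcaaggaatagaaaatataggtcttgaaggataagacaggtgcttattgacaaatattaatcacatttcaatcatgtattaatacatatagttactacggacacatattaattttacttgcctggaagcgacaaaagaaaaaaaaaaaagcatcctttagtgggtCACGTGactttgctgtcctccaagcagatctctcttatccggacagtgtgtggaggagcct
Gata1: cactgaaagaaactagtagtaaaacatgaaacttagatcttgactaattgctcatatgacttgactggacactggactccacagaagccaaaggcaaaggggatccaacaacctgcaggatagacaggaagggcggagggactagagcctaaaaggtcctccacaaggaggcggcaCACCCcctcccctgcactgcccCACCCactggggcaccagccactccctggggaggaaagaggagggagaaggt
The E box lies at -61 to -56 from the Fshr start, and 6.02% of 32851 promoters of the same length hold one. The CACCC boxes of Gata1 lie at -74 to -70 and at -52 to -48, and 52.0% of promoters hold CACCC on either strand. Neither window holds the GATA letters TGATAA (7.94% of promoters), the steroidogenic factor letters CAAGGTCA (1.33%) or the SOX letters ACAATG (10.7%) on either strand. The Gata1 start used by RefSeq, at 7967910, is 1 of 3 coding starts in GENCODE M21, with others at 7978071 and 7964166. On the minus strand, 7978071 lies upstream of the window shown. In the mouse, Sertoli cells are known to use a more distal first exon of Gata1 than red cells do. The window and its CACCC boxes therefore may not belong to the start used in Sertoli cells, and the gene counts do not separate these starts.

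Library totals lay between 57923652 and 70103125 counts, so that 3 counts equalled 0.0428 to 0.0518 CPM (counts scaled to a common library total) and no member was near that floor. BE 6 stood with the BP libraries: across genes it correlated with them at 0.983 and with BE 7 and BE 8 at 0.949. Mitochondrial genes took 7.10 to 8.01% of counts in the BP libraries and 7.19% in BE 6, and 11.8 to 14.5% in the remaining 5. Each gene's level was also taken relative to its own mean over the 9 libraries. The Spearman correlation of that relative level with gene length was positive in BP and BE 6 (0.194 to 0.266). It was negative in the other 5 (-0.218 to -0.0634), so the signs compare libraries with each other. BP 5 carried the epididymal genes Crisp1 at 420 and Adam7 at 28.0 FPKM (fragments per kilobase, scaled to the library total), both with 0 counts in BP 6, BP 7 and BE 6. BdE 7 held Crisp1 at 1.82 FPKM. In the same list of 6 rete testis and epididymis markers, Lcn5 and Lcn8 had 0 counts in every library, BP 5 included. Pax8 and Pax2 were highest in BP 5, at 2.41 and 1.37 FPKM. The calls of Trf and of the list genes are given with and without BE 6 and BP 5.

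The Sertoli label was checked on 20 marker genes, the 6 among them, and all 20 reached 1 FPKM in at least 3 libraries. Their summed level was 6140 to 6450 FPKM in BP, 6030 in BE 6, 7140 and 7310 in BE 7 and BE 8, and 6610 to 7610 in BdE. Of that sum Clu alone held 2370 to 2785 FPKM. As the 6 are in the list, the check is not independent of them. Cells other than Sertoli cells that could supply single members were checked by their own markers. For Gata1, 0 of 6 mast cell markers reached 1 FPKM in 3 libraries, and the red cell genes Klf1, Slc4a1 and Epb42 stayed under 1 FPKM in all 9. The globin genes Hbb-bs, Hbb-bt, Hba-a1 and Hba-a2, and Alas2, did pass that rule. Hbb-bs lay at 49.0 to 64.5 FPKM in BP, 51.9 to 94.2 in BE and 26.1 to 115 in BdE, and Alas2, the heme synthesis enzyme of red cells, at 10.6 to 16.4, 14.5 to 17.2 and 9.01 to 20.9. The part of red cells in the Gata1 level was not tested. The platelet factor gene Pf4 was the only one of 5 eosinophil and megakaryocyte markers to pass, at 11.9 to 22.9 FPKM. For Wt1, the mesothelial marker Msln stayed under 1 FPKM throughout, with Lrrn4 the only one of 4 mesothelial markers to pass, at 2.62 to 9.78 FPKM. For Sox9 and Clu, 0 of 6 rete testis and epididymis markers reached 1 FPKM in 3 libraries, with BP 5 as described above. For Trf, the summed liver markers Alb, Apoa1 and Ttr lay at 0.792 to 2.15 FPKM. Summed markers of all germ cell stages (Ddx4, Dazl, Mael and Tex101) lay at 5.25 to 27.9 FPKM. The extraction text names retinas, but the photoreceptor gene Crx had 0 counts in every library and 1 of 6 photoreceptor markers, Pde6a, passed that rule.

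Per length, Clu was the most abundant of the 6 by a wide margin. It reached 2600 FPKM as a mean of 9 libraries (2370 to 2785) and ranked 13th to 23rd of all genes within a library. Gata1 followed at 48.8 FPKM (43.3 to 51.8), then Sox9 at 35.7 (32.3 to 40.3), Wt1 at 34.7 (26.9 to 53.7), Trf at 21.2 (11.6 to 30.1) and Fshr at 14.8 (10.8 to 23.1). The ranges of Gata1 and Sox9 did not overlap, while that of Wt1 overlapped both. The range of Trf overlapped those of Wt1 and Fshr, so the lower end of this order is not resolved beyond the spread of libraries. All 6 passed the filter on low values (1 FPKM or more in 3 or more libraries), and the lowest value of any member was 10.78 FPKM.

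The 6 split by how much they varied. Over the 9 libraries the coefficient of variation of TMM-scaled CPM was 3.76% for Clu, 6.03% for Gata1 and 7.30% for Sox9. It was 25.7% for Wt1, 26.2% for Fshr and 31.8% for Trf, against a median of 19.2% over the 14570 genes tested. Of those genes 0.659% varied less than Clu, 4.96% less than Gata1 and 8.77% less than Sox9. Among the 5400 genes with a mean CPM at least as high as that of the lowest member, 1.63%, 10.6% and 17.3% varied less than Clu, Gata1 and Sox9.

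**Figure D1:**
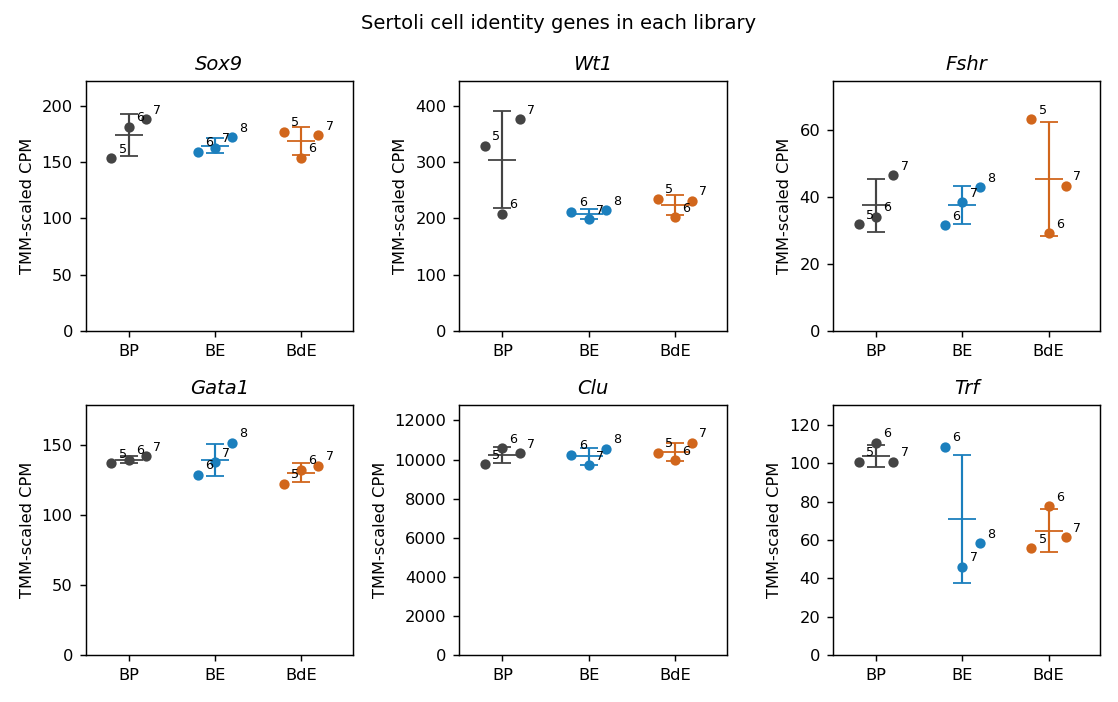
TMM-scaled CPM of the 6 genes on linear axes from 0, in BP, BE and BdE. Points are libraries with their replicate numbers, the wide bar is the group mean and the whiskers are 1 SD (n = 3). Clu, Gata1 and Sox9 stay level, Wt1 is high in BP 5 and BP 7, Fshr in BdE 5, and Trf is low in BE 7, BE 8 and the 3 BdE libraries.

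The transcription factors come first. Sox9 had 9212, 12982 and 13041 counts in BP 5, 6 and 7, which are 153, 181 and 188 TMM-scaled CPM. It stood at 159, 163 and 172 CPM in BE 6, 7 and 8, and at 177, 154 and 174 CPM in BdE 5, 6 and 7. BP 5 was the lowest and BP 7 the highest of all 9 libraries, and the ranges of both exosome groups lay within that of BP. The mean was 174 CPM in BP (SD 18.4, n = 3), 165 in BE (SD 6.71) and 168 in BdE (SD 12.5), and values below follow the form mean ± SD over 3 libraries. The log2 difference was -0.08 (95% interval -0.31 to 0.15) for BE minus BP and -0.05 (-0.28 to 0.18) for BdE minus BP. Neither was past the threshold (edgeR adjusted p = 0.654 and 0.764).

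Gata1 was level as well. The BP libraries 5, 6 and 7 held 137, 140 and 142 CPM from 8230, 10002 and 9845 counts. The BE libraries 6, 7 and 8 held 129, 138 and 152 CPM, and the BdE libraries 5, 6 and 7 held 122, 132 and 135 CPM. All 3 BdE values lay just under the lowest BP value, and the BE range spanned that of BP. The mean was 139 ± 2.51 CPM in BP, 139 ± 11.4 in BE and 130 ± 6.75 in BdE. The BdE minus BP log2 difference was -0.10 (SE 0.083, 95% interval -0.29 to 0.09) and did not pass (edgeR adjusted p = 0.442). For BE minus BP the interval ran from -0.19 to 0.19.

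Wt1 varied most within the control group. It had 19758, 14930 and 26082 counts in BP 5, 6 and 7, or 329, 208 and 376 CPM. The BE libraries 6, 7 and 8 lay at 212, 198 and 214 CPM and the BdE libraries 5, 6 and 7 at 235, 203 and 232 CPM. BP 5 and BP 7 were thus the only high libraries, and BP 6 fell among the 6 exosome libraries, so the groups overlapped. The mean was 304 ± 86.5 CPM in BP, 208 ± 8.59 in BE and 223 ± 17.8 in BdE. The log2 difference was -0.55 (SE 0.19) for BE minus BP and -0.45 (SE 0.19) for BdE minus BP, with edgeR adjusted p of 0.38 and 0.204. In the 6 BP and BdE libraries alone the edgeR adjusted p was 0.178. Without BP 6, the control library at the exosome level, it was 0.0428 with a log2 difference of -0.66. Leaving out the lowest BP value widens the difference by construction, so that call adds no support. It was the only 1 of 27 alternatives in which Wt1 passed for BdE minus BP. Over the 27 the log2 difference of Wt1 ran from -0.66 to -0.27.

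Wt1os, an antisense RNA gene on the minus strand, starts 18 bases from Wt1 at chr2:105076538-105126510 and was looked at for that reason. It stood at 35.8, 38.5 and 35.0 CPM in BP and 35.0 in BE 6. The other libraries were higher, at 67.2 and 61.7 CPM in BE 7 and BE 8 and 55.3, 51.9 and 62.1 CPM in BdE. BP 5 and BP 7, the high libraries for Wt1, were not apart for Wt1os. In the 6 BP and BdE libraries the log2 difference of Wt1os was 0.63 with an SE of 0.093 (edgeR adjusted p = 0.0106), and in the 9-library model the adjusted p was 0.19. The annotated genes do not overlap, but no label or header says whether reads were counted by strand.

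Fshr, the hormone receptor, was the least abundant member per length. It had 1922, 2445 and 3231 counts in BP 5, 6 and 7, or 31.98, 34.1 and 46.6 CPM. It stood at 31.6, 38.5 and 42.9 CPM in BE 6, 7 and 8, and at 63.2, 29.3 and 43.4 CPM in BdE 5, 6 and 7. The BdE group held both the highest and the lowest of the 9 values, and its range enclosed the others. The mean was 37.6 ± 7.89 CPM in BP, 37.7 ± 5.71 in BE and 45.3 ± 17.0 in BdE. The BdE minus BP log2 difference was 0.27 (SE 0.28, 95% interval -0.36 to 0.90, edgeR adjusted p = 0.536), and without BdE 5 it was -0.05 in the model of the remaining 8.

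The secreted proteins differed from each other. Clu had 587025, 758358 and 714792 counts in BP 5, 6 and 7, 716450, 644912 and 686527 in BE 6, 7 and 8, and 707296, 662445 and 691805 in BdE 5, 6 and 7. It took 0.930 to 1.08% of a library's counts. On the TMM scale the 9 values ran from 9709 CPM in BE 7 to 10850 in BdE 7, and the 3 groups overlapped throughout. The mean was 10200 ± 415 CPM in BP, 10200 ± 430 in BE and 10400 ± 448 in BdE. The log2 difference was -0.01 (95% interval -0.31 to 0.30) for BE minus BP and 0.02 (-0.28 to 0.33) for BdE minus BP, with edgeR adjusted p of 0.981 and 0.924. Quantile normalization, which forces the top ranks together, moved the second value to -0.45, also not past the threshold.

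Trf was the only member called in the fit of the 6 BP and BdE libraries alone. In the 9-library model it did not stand out from Wt1. The unadjusted edgeR p of Wt1 and Trf was 0.0197 and 0.0892 for BE minus BP. For BdE minus BP it was 0.0454 and 0.0441. Trf had 6053, 7922 and 6982 counts in BP 5, 6 and 7, or 101, 111 and 101 CPM. In BE it held 7593 counts (109 CPM) in replicate 6 but 3056 and 3783 (46.0 and 58.2 CPM) in replicates 7 and 8. The BdE libraries 5, 6 and 7 held 3805, 5165 and 3914 counts, or 55.7, 77.6 and 61.4 CPM. Every BdE library lay below every BP library, and BE divided, with replicate 6 at the BP level and the others at the BdE level. In bulk tissue, fewer cells that make a transcript and less of it per cell cannot be told apart.

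The mean of Trf was 104 ± 5.69 CPM in BP, 70.9 ± 33.2 in BE and 64.9 ± 11.4 in BdE. In the 9-library model the log2 difference from BP was -0.55 (SE 0.29) for BE and -0.68 (SE 0.29) for BdE, with edgeR adjusted p of 0.381 and 0.203. With only the 6 BP and BdE libraries in the fit, so that BE adds nothing to the spread, Trf fell by 0.68 (SE 0.13, 95% interval -1.0 to -0.36, edgeR adjusted p = 0.0194). That call was lost without BP 5 (0.0564), BP 6 (0.0713), BP 7 (0.0573) or BdE 7 (0.0706), and held without BdE 5 (0.0332) or BdE 6 (0.0072). With BE 6 left out of the 9, the BE minus BP difference was -0.997 (edgeR adjusted p = 0.0059), and BE 6 was singled out after its profile had been seen. Without BE 6 the BdE minus BE difference changed sign, from -0.13 to 0.32.

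**Figure D2:**
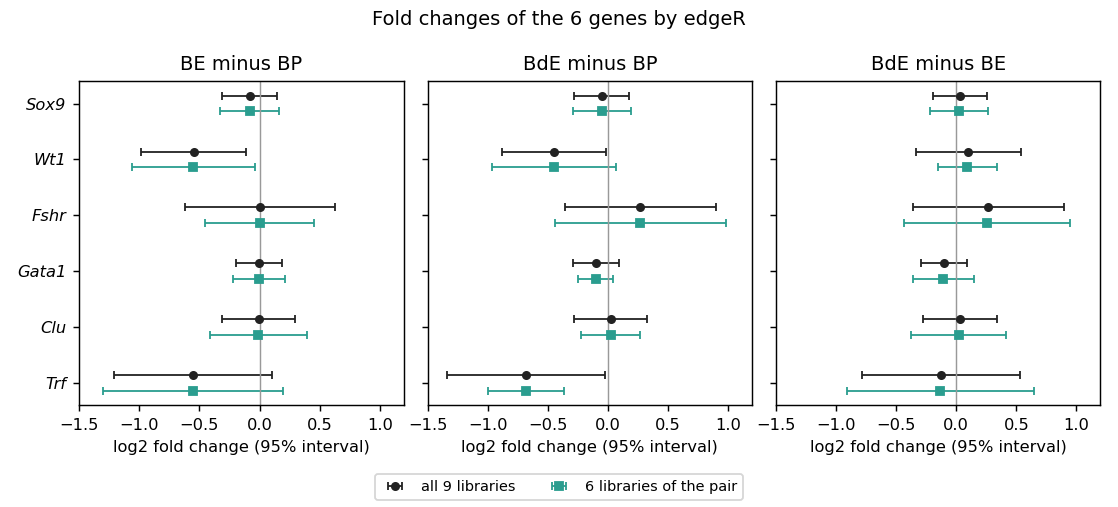
Log2 fold changes of the 6 genes with 95% intervals from edgeR, for each pair of groups, from the model of all 9 libraries and from the 6 libraries of the pair. The interval of Trf in BdE minus BP narrows in the 6-library fit (-1.0 to -0.36), while Sox9, Gata1 and Clu stay near 0 in every panel.

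Counted together, 0 of 6 members passed in BE minus BP, BdE minus BP or BdE minus BE in the 9-library edgeR model, where 0.0137%, 0.00686% and 0.00686% of all genes tested passed. At an unadjusted p under 0.05 there were 1 (Wt1), 2 (Wt1 and Trf) and 0, against 12.8%, 24.1% and 2.33% of all genes. DESeq2 and limma-voom on the same libraries also called 0 members, where DESeq2 called 61, 389 and 26 of the 14570 genes tested. In the 6-library fit of BdE minus BP 1 of 6, Trf, passed, lower in BdE, where 21.1% of all genes passed and 11.9% were called lower. Without BE 6, 1 of 6 passed in BE minus BP, again Trf, against 29.9% of all genes. The groups did not overlap for 2 of 6 members in BdE against BP, Gata1 and Trf, against 44.0% of all genes, and both were lower in BdE, against 22.8%. The members' shares thus lay on both sides of the background, and 6 genes are too few to tell them apart from it. The median log2 difference of the 6 was -0.08 for BdE minus BP, beside 0.01 over all genes tested. The 2 comparisons with BP share the BP libraries.

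The libraries low in Trf were also low in markers of several other cell types. Summed macrophage markers were 254 to 257 FPKM in BP and 268 in BE 6, against 75.0 and 134 in BE 7 and BE 8 and 105 to 146 in BdE. Summed peritubular myoid markers were 227 to 239 FPKM in BP and 209 in BE 6, against 120 and 125 in BE 7 and BE 8 and 138 to 186 in BdE. Summed endothelial markers were 18.4 to 21.9 FPKM in BP and 24.9 in BE 6, against 10.4 and 11.7 in BE 8 and BE 7 and 11.0 to 13.3 in BdE. Among Leydig cell genes, Cyp11a1, the first enzyme of steroid synthesis, was 158 to 201 FPKM in BP and 233 in BE 6, against 32.7 to 123 in the remaining 5. The Leydig sum, which the hormone gene Insl3 dominates, was 8430 to 9400 FPKM in BP, 7400 to 9210 in BE and 8870 to 10500 in BdE. All markers of these lists were detected, and their part in the Trf result was not tested. The length trend and the mitochondrial share moved along the same split of libraries. With the length trend entered as an offset, the Trf difference for BdE minus BP was again -0.68 (edgeR adjusted p = 0.214 with all 9 libraries).

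**Figure D3:**
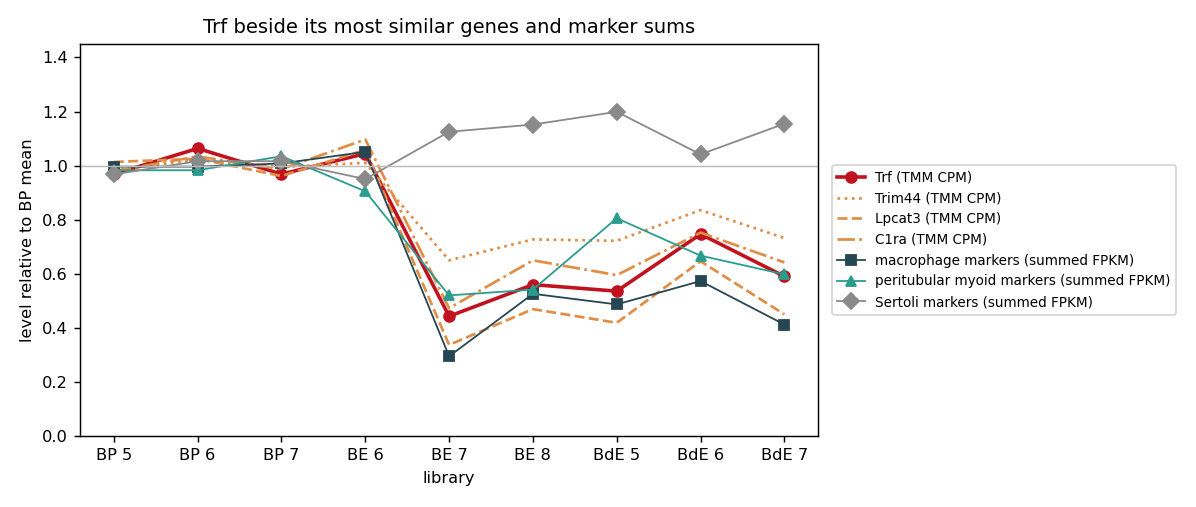
Levels in each library relative to the BP mean, on a linear axis from 0, for Trf, its 3 most similar genes and summed FPKM of 3 marker lists. Trf, macrophage and peritubular myoid markers lie near 1 in the 3 BP libraries and BE 6 and under it in the other 5, while the Sertoli marker sum lies above 1 there. The Sertoli sum includes Trf itself and the abundant Clu.

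The genes most like each member were taken by Pearson correlation of log2(CPM + 1) over the 9 libraries, a description over points that share depth and the split of libraries described above. For Trf they were Trim44 (0.997), Lpcat3 (0.995) and C1ra (0.992). Lpcat3, an enzyme that remodels phospholipids, went from 64.6 to 71.1 CPM in BP and BE 6 to 22.6 to 43.4 CPM in the other libraries. For Fshr they were Dcaf12l1 (0.981), Sytl4 (0.976) and Kansl3 (0.976), each highest in BdE 5 and lowest in BdE 6. For Wt1 they were Amer1 (0.950), Fam185a (0.927) and Psmd5 (0.919), each highest in BP 7. For Sox9 they were Dolk (0.946), Gpkow (0.917) and Kalrn (0.912). The level genes Gata1 and Clu had weaker matches, led by Rnaseh2a (0.899) and Rasl11a (0.891). Between members the highest values were 0.678 for Sox9 with Clu and 0.675 for Sox9 with Fshr, and the lowest was -0.51 for Fshr with Trf.

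Other regulators of Sertoli cell fate were followed beside Sox9, Wt1 and Gata1. Of 9 listed, 8 were tested, since Zfpm2, a GATA cofactor, lay at 0.208 FPKM. In the 6 BP and BdE libraries 2 of 8 rose in BdE and 1 fell, against 9.2% and 11.9% of all genes. Dmrt1, a factor that keeps Sertoli cells from turning female, stood at 62.4, 61.9 and 68.5 CPM in BP, 56.2, 106 and 93.4 in BE, and 95.4, 73.9 and 94.0 in BdE. It rose by 0.45 (SE 0.12, edgeR adjusted p = 0.0405). Nr0b1, a nuclear receptor of gonads and adrenal, rose by 0.23 (SE 0.051, adjusted p = 0.0284 by edgeR), from 143 ± 0.468 to 167 ± 5.31 CPM.

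Zfpm1, the partner protein of Gata1, moved the other way. It stood at 59.3, 57.0 and 60.2 CPM in BP, 61.8, 44.4 and 89.4 in BE and 31.3, 39.4 and 41.1 in BdE. Every BdE library was below every BP and BE library, and Zfpm1 fell by 0.66 (SE 0.12, edgeR adjusted p = 0.0152) from BP to BdE. Within the SoxE and GATA families, Sox8, Sox9, Gata1, Gata4 and Gata6 were tested and Sox10, Gata2, Gata3 and Gata5 averaged under 1 FPKM. Of the 5 tested, 1 rose from BP to BdE in the 6-library fit, where 9.2% of all genes did. That was Gata6, by 0.25 (SE 0.068, edgeR adjusted p = 0.0451). Gata4, the most abundant of the other GATA genes at 57.2 FPKM, stood at 245 ± 14.6 CPM in BP, 254 ± 12.1 in BE and 269 ± 23.3 in BdE and was not called.

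Among Wt1 partners 0 of 5 tested passed by edgeR in any fit of BdE minus BP that used 6 or 9 libraries. Of all genes 21.1% passed with 6 libraries and 0.00686% with 9. At an unadjusted p under 0.05 in the 9 there were 0, against 24.1% of all genes, and DESeq2 called 0, against 389 of the 14570 genes tested. Basp1, a corepressor of Wt1, held 332, 371 and 414 CPM in BP, 311, 530 and 534 in BE and 583, 409 and 521 in BdE. Cited2, a cofactor that acts with Wt1 in the early gonad, held 150 ± 34.7 CPM in BP, 178 ± 52.7 in BE and 174 ± 56.3 in BdE. Of 6 clusterin receptors and lipoprotein partners, 3 were tested and 0 passed, beside the same shares of all genes. Likewise 0 had an unadjusted p under 0.05 and DESeq2 called 0. Lrp8, a receptor for clusterin and apolipoprotein E, held 397, 409 and 237 CPM in BP and 393 to 444 CPM in the 6 other libraries, so BP 7 was the low one. Apoe, which encodes that apolipoprotein, held 605 ± 197 CPM in BP, 509 ± 207 in BE and 497 ± 82.6 in BdE. Its BdE minus BP difference of -0.28 was 0.01 without BP 7.

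Genes of FSH signalling were followed beside Fshr. The hormone subunits Fshb and Cga, made in the pituitary, had 0 counts in every library. Of 14 tested pathway genes, 1 rose and 4 fell in BdE in the 6-library fit, against 9.2% and 11.9% of all genes. Gnas, the stimulatory G protein that couples the receptor to cyclic AMP, stood at 755, 735 and 786 CPM in BP, 754, 958 and 1010 in BE and 986, 1100 and 1080 in BdE. It rose by 0.48 (SE 0.070, edgeR adjusted p = 0.0106). Its locus also encodes other proteins from the same gene, and the counts pool them.

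Those that fell were Adcy3, Adcy9, Prkar1a and Prkar2a. Adcy9, an adenylyl cyclase that makes cyclic AMP, stood at 54.3, 56.4 and 66.1 CPM in BP and 58.4 in BE 6, against 19.9 and 17.7 in BE 7 and BE 8 and 25.0, 24.8 and 25.8 in BdE. It fell by 1.23 (SE 0.096, edgeR adjusted p = 0.00437). Adcy3, another cyclase, fell by 1.91 (SE 0.24, adjusted p = 0.00817 by edgeR) from a low 7.98 ± 1.63 to 2.12 ± 0.408 CPM. Prkar2a, a regulatory subunit of protein kinase A, fell by 0.54 (SE 0.085, edgeR adjusted p = 0.0127). These enzymes work in many cell types, and the fit cannot assign them to Sertoli cells.

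Iron handling genes were followed beside Trf. Of 11 tested, 0 rose and 3 fell in BdE in the 6-library fit, against 9.2% and 11.9% of all genes, and the median difference of the 11 was 0.02. Steap3, the ferrireductase that prepares transferrin-bound iron for transport, stood at 15.6, 20.5 and 15.5 CPM in BP and 18.0 in BE 6, against 1.42 and 2.97 in BE 7 and BE 8 and 2.34, 3.47 and 2.46 in BdE. It fell by 2.64 (SE 0.22, edgeR adjusted p = 0.00445). Cp, which encodes the ferroxidase ceruloplasmin, stood at 111 ± 8.66 CPM in BP and 59.2 ± 6.59 in BdE, and fell by 0.90 (SE 0.11, edgeR adjusted p = 0.00764). Aco1, an enzyme that also serves as an iron sensor, fell by 0.42 (SE 0.089, edgeR adjusted p = 0.0242). Tfrc, the transferrin receptor that takes up the protein Trf encodes, held 20.8 ± 3.48 CPM in BP, 24.7 ± 1.66 in BE and 23.3 ± 5.64 in BdE and was not called (0.17, SE 0.21). The macrophage marker sums given for Trf moved with Steap3, Cp and Aco1 too, and their part was not tested.

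The last list held other secreted and structural Sertoli genes. Of 17 tested, 8 rose and 1 fell in BdE in the 6 BP and BdE libraries, against 9.2% and 11.9% of all genes, with a median of 0.34 beside 0.01 over all genes. Aard, a testis gene expressed in Sertoli cells, stood at 869, 944 and 965 CPM in BP and 864 in BE 6, against 1640 and 1530 in BE 7 and BE 8 and 1460, 1280 and 1450 in BdE. It rose by 0.59 (SE 0.083, edgeR adjusted p = 0.00985). Rhox8, a homeobox gene of the X-linked reproductive cluster, rose by 0.66 (SE 0.11, edgeR adjusted p = 0.0129) and went from 151 ± 11.6 to 238 ± 27.8 CPM. Cldn11, the claudin of the Sertoli cell tight junction, stood at 727 ± 23.5 CPM in BP and 903 ± 13.2 in BdE, and rose by 0.31 (SE 0.058, edgeR adjusted p = 0.0170).

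Rhox5, Cst9, Cst12, Tsx and Mro rose as well, and the 8 that rose gained between 0.29 and 0.69. The exception was Shbg, which encodes androgen-binding protein. It stood at 190, 199 and 192 CPM in BP, 190, 141 and 167 in BE and 160, 158 and 152 in BdE, and fell by 0.30 (SE 0.052, edgeR adjusted p = 0.0147). The 8 that rose had a median length of 1147 bases and the 8 that were not called 4923, beside 4125 over all genes tested. Shorter genes were higher in the BdE, BE 7 and BE 8 libraries in general, as the length trends show, and their part in this result was not tested. With the length trend as an offset in the 9-library model the difference of Aard went from 0.59 to 0.43, that of Rhox8 from 0.66 to 0.48 and that of Cldn11 from 0.31 to 0.20, while that of Shbg went from -0.30 to -0.45 and the median of the 17 was 0.34. The macrophage and peritubular myoid marker sums were lower in BdE than in BP, as given for Trf, and their part was not tested.

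**Figure D4:**
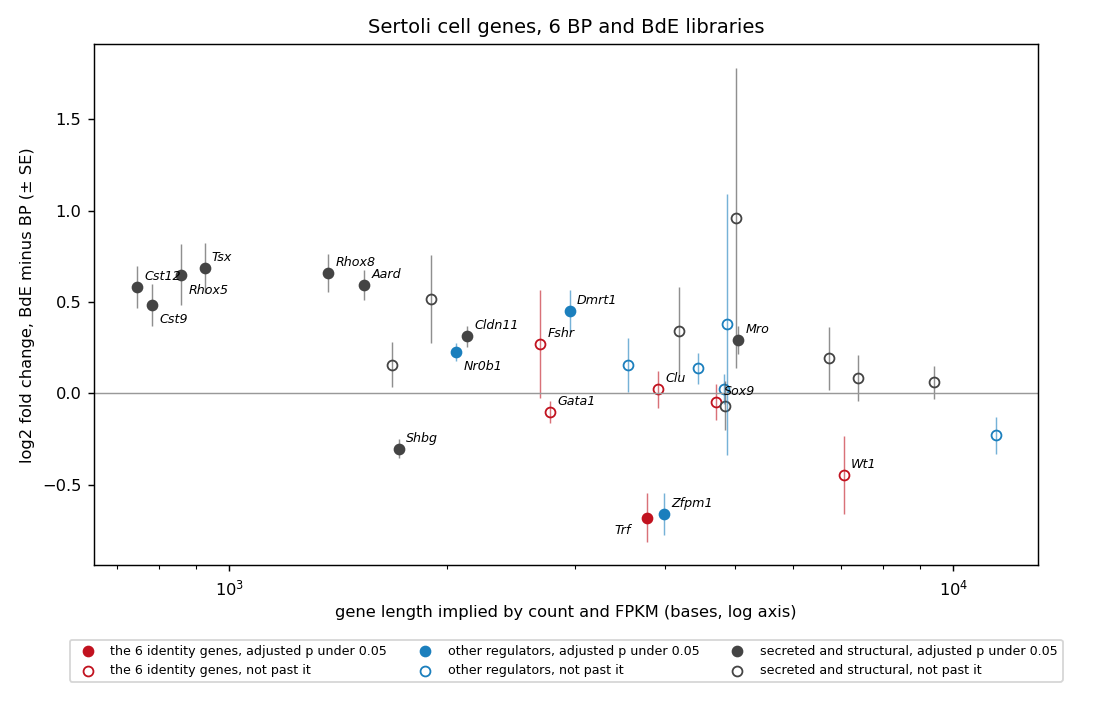
Log2 fold change, BdE minus BP, with its SE in the 6-library edgeR fit, against gene length on a log axis. Filled points have an adjusted p under 0.05. Genes that rose lie mostly at short lengths, while the 6 identity genes lie at 2685 to 7050 bases and Trf alone of them is filled.

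The list calls rested on the choice of libraries. In the 9-library edgeR model 0 genes of these lists passed in any comparison. At an unadjusted p under 0.05 in BdE minus BP there were 8 of the 17 secreted and structural genes, 1 of 8 regulators, 5 of 14 FSH pathway genes and 4 of 11 iron genes, where 24.1% of all genes were. DESeq2 called Gnas and Steap3 among them, where it called 389 of the 14570 genes tested. In the 6-library fit without BP 5, the library with epididymal transcripts, 2 of 17 secreted and structural genes rose and 1 fell, where 3.0% and 5.63% of all genes did. Likewise 2 of the 17 rose without BP 6, BP 7 or BdE 7, where 1.56%, 2.57% and 2.1% of all genes did. Without BdE 5, 5 rose, against 6.67% of all genes, and without BdE 6, 8 rose, against 8.87%. Of the genes named from the lists, Zfpm1 (edgeR adjusted p = 0.0514), Nr0b1 (0.0876), Dmrt1 (0.114), Cldn11 (0.0581), Aco1 (0.0769) and Gata6 (0.0954) were no longer called without BP 5. Aard, Rhox8, Shbg, Adcy3, Adcy9, Gnas, Prkar2a, Steap3 and Cp were still called, with adjusted p between 0.0229 and 0.0481. With BE 6 left out, BE minus BP gave 8 higher and 1 lower of the 17, where 13.7% and 16.2% of all genes passed, and 0 higher and 3 lower of the 11 iron genes. BdE minus BP without BE 6 gave 8 higher and 1 lower of the 17, where 10.3% and 12.1% of all genes passed.

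Between the exosome groups 0 members and 0 list genes passed in BdE minus BE by edgeR in the 9- or the 6-library fit, and 0.00686% and 0% of all genes did. At an unadjusted p under 0.05 in the 9-library model there were 0 members, Zfpm1 among the regulators and Slc40a1, the iron exporter, among the iron genes. Of all genes 2.33% were under it. DESeq2 called 0 of these genes, against 26 of the 14570 genes tested. For the members the intervals were -0.20 to 0.26 for Sox9, -0.34 to 0.54 for Wt1, -0.36 to 0.89 for Fshr, -0.29 to 0.09 for Gata1, -0.28 to 0.34 for Clu and -0.78 to 0.53 for Trf.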

How the data were processed

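RNA was measured by sequencing in 9 mouse testis libraries, 3 per group. The deposited table holds a count and an FPKM value per gene and library. Per the file headers, a count is a number of reads per gene. FPKM values are the authors' own, with 0.0001 in place of 0, and within a gene the deposited FPKM tracks count over library total (SD of the log2 ratio 0.00043). The submitters' processing notes name Bowtie 0.12.2 and mm8 without roles, while 51957 genes (93.8%) have GRCm38 coordinates equal to GENCODE M21. Neither the counting program nor its strand setting is stated there. Gene length is that implied by count and FPKM.

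The 14570 genes that reached 1 FPKM in 3 or more of 9 libraries were tested (98.6% of a library's counts at the lowest). Groups were compared in 1 model of all 9 libraries by the two-sided quasi-likelihood test of edgeR 4.0.16 in R 4.3.3 with TMM scaling. P-values carry the Benjamini-Hochberg adjustment across the 14570 genes, with a threshold of 0.05. Only rows of the members and lists are printed. The same fit on the 6 libraries of a pair, DESeq2 1.42.0, limma 3.58.1, other scalings, filters and libraries left out were alternatives, and scripts were tested on simulated data. Intervals are at 95%, and the floor of 3 counts covers counting error only. The members and lists were chosen with earlier results of these data known. From each list up to 4 genes past the threshold by smallest p were named, or the 2 most abundant where fewer than 2 passed. Wt1os, Tfrc, Lpcat3, Slc40a1, Prkar1a and the further genes that rose were named outside that rule, after their values were seen.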

Additional observations from a re-analysis of the deposited data

How the results depend on the processing

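Counts of genes past the threshold moved most. For BE minus BP, 2 in the 9-library model became 61 with DESeq2, 1 with limma on log2(FPKM + 1), 1 with a pseudocount of 0.1 and 0 in 6 libraries, and leaving out single libraries gave 0 to 4387, the highest without BE 6. For BdE minus BP, 1 became 2 with quantile normalization, 389 with DESeq2, 3 with no filter, 2 with filterByExpr, 2 with either limma pseudocount, 2 with the length offset and 3078 in 6 libraries, with 0 to 3257 over libraries left out. For BdE minus BE, 1 became 26 with DESeq2, 2 with no filter, 2 with filterByExpr and 0 in 6 libraries, with 0 to 6 over libraries left out. For 3 groups together, 2 became 194 with DESeq2, with 0 to 3509 over libraries left out. With the replicate number as a replicate block, 0 genes passed in each of these 4. Residuals of libraries with the same number correlated at -0.117 to 0.233 over 7 pairs and those with different numbers at -0.175 to 0.23 over 20, so the numbers were not taken as pairing. The cause of these shifts was not tested.

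Differences near 0 changed sign. Fshr in BE minus BP was -0.00526 with no filter, -0.00221 with filterByExpr, -0.0562 and -0.0593 with limma on FPKM, -0.0151 with the replicate block and -0.0515 with the length offset, from 0.00396. Gata1 in BE minus BP was 0.00318 with DESeq2 size factors, 0.0289 with quantile normalization and 0.00312 with DESeq2, from -0.0019. Clu in BdE minus BP was -0.452 with quantile normalization and -0.0542 and -0.0542 with limma on FPKM, and in BdE minus BE -0.00752 with quantile normalization. Over libraries left out, Sox9 ran from -0.134 to 0.0222 in BdE minus BP and -0.00616 to 0.0836 in BdE minus BE. Fshr ran from -0.1 to 0.189, -0.0577 to 0.517 and -0.0511 to 0.493 in BE minus BP, BdE minus BP and BdE minus BE. Gata1 ran from -0.0676 to 0.0518 in BE minus BP, and Trf from -0.362 to 0.317 in BdE minus BE. Clu ran from -0.0384 to 0.0258, -0.0174 to 0.0649 and -0.00287 to 0.0576. Trf in BdE minus BP kept its sign in all 27 alternatives (-0.839 to -0.581) and passed in 4, and Wt1 kept its sign in 27 and passed in 1. Depth limits none of the members, which have at least 1922 counts in every library; the spread between 3 libraries does.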

Other observations

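Fshr was highest in BdE 5. Of the 17 secreted and structural genes 6 (Amh, Cst9, Gdnf, Inha, Kitl and Tsx) had their highest level in BdE 5, beside 12.8% of all genes tested. Inha, the alpha subunit of inhibin, stood at 1400 CPM in BdE 5 against 1060 and 1140 in BdE 6 and BdE 7. Gdnf, the growth factor for spermatogonial stem cells, stood at 27.5 CPM against 16.1 and 20.4, and Kitl, the ligand of the Kit receptor on spermatogonia, at 228 CPM against 150 and 190. These genes were picked after the levels were seen, in 1 library, with no test.

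Dhh, the hedgehog ligand of Sertoli cells, stood at 196 CPM in BE 7 and 181 CPM in BdE 7 and at 19.8 to 44.5 CPM in the other 7 libraries. The high libraries came from different groups. Aard, Cldn11 and Rhox8 were also highest in BE 7, which with Dhh makes 4 of the 17, beside 17.9% of all genes tested. Unlike Dhh, they were nearly as high in BE 8, at 1530, 950 and 273 CPM against 1640, 1020 and 294 in BE 7.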
